A study of Mus musculus with 4 samples.

Results

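The potassium channel genes of the mouse cortex were followed across 15 cell types and between non-pregnant and pregnant mice. Members were all genes whose symbol begins with Kcn, continues with lower-case letters and a digit, and does not end in Rik or os. The rule took 94 of the 33696 genes in the count tables. It left out 4 antisense genes by their os endings (Kcnd3os, Kcnmb4os1, Kcnmb4os2 and Kcnab3os). It took 1 noncoding RNA, Kcnq1ot1, which is kept apart here, so 93 members encode a channel pore or an auxiliary protein. They fall into 15 families by name.

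Potassium channels let potassium ions leave or enter the cell, which sets the resting potential and ends each action potential. Voltage-gated pores of the Kcna, Kcnb, Kcnc, Kcnd, Kcnq and Kcnh families open on depolarisation, Kcnma1 and Kcnn pores respond to calcium, Kcnj pores rectify inwardly and Kcnk pores carry leak current. Kcnab, Kcnip, Kcnmb and Kcne genes encode partners that alter gating or delivery of the pores, and in the cortex the mix of subunits is known to shape the firing of each neuron class and the uptake of potassium by glia.

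Single-nucleus RNA sequencing was performed on microdissected cortex of wild-type female C57BL/6JRj mice of about 12 weeks. There were 2 libraries from non-pregnant controls and 2 from pregnant mice taken at E13.5, a stage of gestation counted in embryonic days. The labels number the libraries as replicates and do not say how many animals each holds. All mice shared genotype, strain, sex and age, and the labels do not name the area of cortex dissected. Nuclei were isolated in the presence of actinomycin D, which blocks transcription. The counts are unique molecular identifiers (UMIs), each standing for a captured RNA molecule, read near the 3' end with 10x GEM-X chemistry.

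The 4 libraries held 97875766 to 116860425 UMIs in 6357 to 6932 barcodes, with 13187.5 to 17723 UMIs per barcode at the median, and 25033 of 26816 barcodes were kept. Clusters were named from lists of marker genes that hold no Kcn gene, so a type name means that a cluster resembles that type. The types were excitatory neurons of layers 2/3, 4/5, 5 and 6 with intratelencephalic (IT), extratelencephalic (ET), near-projecting (NP) or corticothalamic (CT) axons, interneurons with Pvalb, Sst, Vip or Lamp5 markers, astrocytes, oligodendrocytes, oligodendrocyte precursor cells (OPC) and microglia. The Lamp5 cluster also held nuclei with Sncg markers. Unnamed clusters held 2829 nuclei. Unnamed clusters nearly limited to the pregnant group held 14 and 0 nuclei in the non-pregnant libraries and 600 and 568 in the pregnant ones, or 9.63% and 8.94% of nuclei. A low-depth unnamed cluster (median 1308 UMIs) held 6.75% of pregnant replicate 2 and 0.769% to 1.93% of the others. Between 20 and 31 barcodes were shared by any pair of libraries. Within the named L2/3 IT and L4/5 IT types, nuclei spread unequally over clusters: cluster 8 held 909 and 1175 L2/3 IT nuclei of the non-pregnant libraries, while cluster 7 held 489 and cluster 8 583 in pregnant replicates 1 and 2. Cluster 0 held the most L4/5 IT nuclei in non-pregnant replicate 1 (598) and in both pregnant libraries (461 and 379), and cluster 17 the most in non-pregnant replicate 2 (487).

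Promoters are shown for 3 members that the pregnancy comparison turned on, Kcnj3, called in the most cell types, and Kcna2 and Kcnh4, called in single types and in the whole library. Each is the RefSeq sequence from 250 bases before to 50 bases after the start of the gene in build GRCm38.p6, which is not the build of the counts (GRCm39), written 5′ to 3′ on the gene's strand. Capitals mark matches, on either strand, to the GC box GGGCGG or the E-box CACGTG. Kcnj3 (ENSMUSG00000026824, a subunit of G-protein-gated inward rectifiers) lies on the plus strand at chr2:55435720-55436019, Kcna2 (ENSMUSG00000040724, a voltage-gated pore of axons) on the plus strand at chr3:107101317-107101616, and Kcnh4 (ENSMUSG00000035355, a voltage-gated pore of the ELK group) on the minus strand at chr11:100759729-100760028.
Kcnj3: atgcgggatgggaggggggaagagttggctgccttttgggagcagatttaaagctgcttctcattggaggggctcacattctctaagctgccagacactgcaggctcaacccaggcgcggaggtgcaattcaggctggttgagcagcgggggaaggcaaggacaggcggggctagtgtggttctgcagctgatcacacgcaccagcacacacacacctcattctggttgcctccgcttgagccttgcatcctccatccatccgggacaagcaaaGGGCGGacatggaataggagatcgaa
Kcna2: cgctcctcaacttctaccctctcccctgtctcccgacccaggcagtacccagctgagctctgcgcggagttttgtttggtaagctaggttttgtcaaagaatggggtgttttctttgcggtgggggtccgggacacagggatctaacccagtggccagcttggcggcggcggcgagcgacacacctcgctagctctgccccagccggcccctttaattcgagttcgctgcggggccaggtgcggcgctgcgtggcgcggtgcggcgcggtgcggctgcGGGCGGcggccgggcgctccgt
Kcnh4: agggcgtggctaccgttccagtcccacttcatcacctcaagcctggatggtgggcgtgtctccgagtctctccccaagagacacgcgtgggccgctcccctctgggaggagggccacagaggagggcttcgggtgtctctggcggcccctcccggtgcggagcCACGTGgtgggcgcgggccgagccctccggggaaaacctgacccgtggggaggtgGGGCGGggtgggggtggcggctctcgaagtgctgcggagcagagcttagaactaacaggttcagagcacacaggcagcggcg
GC content was 57.7% for Kcnj3, 66.7% for Kcna2 and 68.7% for Kcnh4. Each window held 1 GC box, and that of Kcnh4 also held 1 E-box. None of the 3 held the oestrogen response element (GGTCA, any 3 bases, TGACC), the steroid response element (GNACA, any 3 bases, TGTNC) or the cAMP response element TGACGTCA, which says only that these letters are not in these windows. Promoters of 69 members were matched, 94 windows in all. Of these, 47.9% held a GC box against 35.7% of all 32851 promoters, 7.45% an E-box against 7.15%, 1.06% the steroid element against 0.475%, and none the oestrogen (0.07% of all) or cAMP element (1.79% of all).

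All 94 members had at least 1 UMI, and 88 had at least 10 over the 4 libraries. The 6 below 10 were Kcnk15, Kcnk16, Kcna7, Kcnj1, Kcnj15 and Kcne1l. Levels are given as UMIs per 1000000 UMIs of the same cell type and library (CPM). They are not scaled to transcript length, so they are compared between cell types for 1 gene and not between genes. At 10 CPM or more in all 4 libraries, 60 members were present in at least 1 type and 34 in none. Members at that level in all 15 types numbered 10, among them Kcnip4, Kcnq5, Kcnq3, Kcnj3, Kcnh7, Kcna2, Kcnd2, Kcnma1 and Kcnq1ot1. Kcnip4, which encodes a calcium-binding partner of Kcnd pores, gave 41.7% of the 10921035 UMIs of all members.

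Summed over members, the level was highest in L4/5 IT neurons, at 34539 ± 1529 CPM (mean ± SD, n = 4 libraries), L2/3 IT at 33522 ± 1561 and L6 IT at 32649 ± 1437. L4/5 IT was above L6 IT in each of the 4 libraries, while the order of L2/3 IT against either varied between libraries. These differences were not tested. L5 ET followed at 28508 ± 2361, Lamp5 at 27190 ± 570.1 and L5 IT at 25705 ± 1719. L5/6 NP (21792 ± 566.9), Vip (21640 ± 1162) and Pvalb (21606 ± 630.8) had like sums, and L6 CT (17094 ± 617.9) and Sst (16400 ± 456.4) were the lowest neurons. OPC reached 11339 ± 529.4, astrocytes 4032 ± 134.6, oligodendrocytes 3578 ± 92.1 and microglia 2011 ± 123.6. These sums follow Kcnip4 to a large part: its own level ran from 3468 CPM in L6 CT to 16695 CPM in L6 IT among excitatory types and was at most 212.1 CPM in any glial type.

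**Figure D1:**
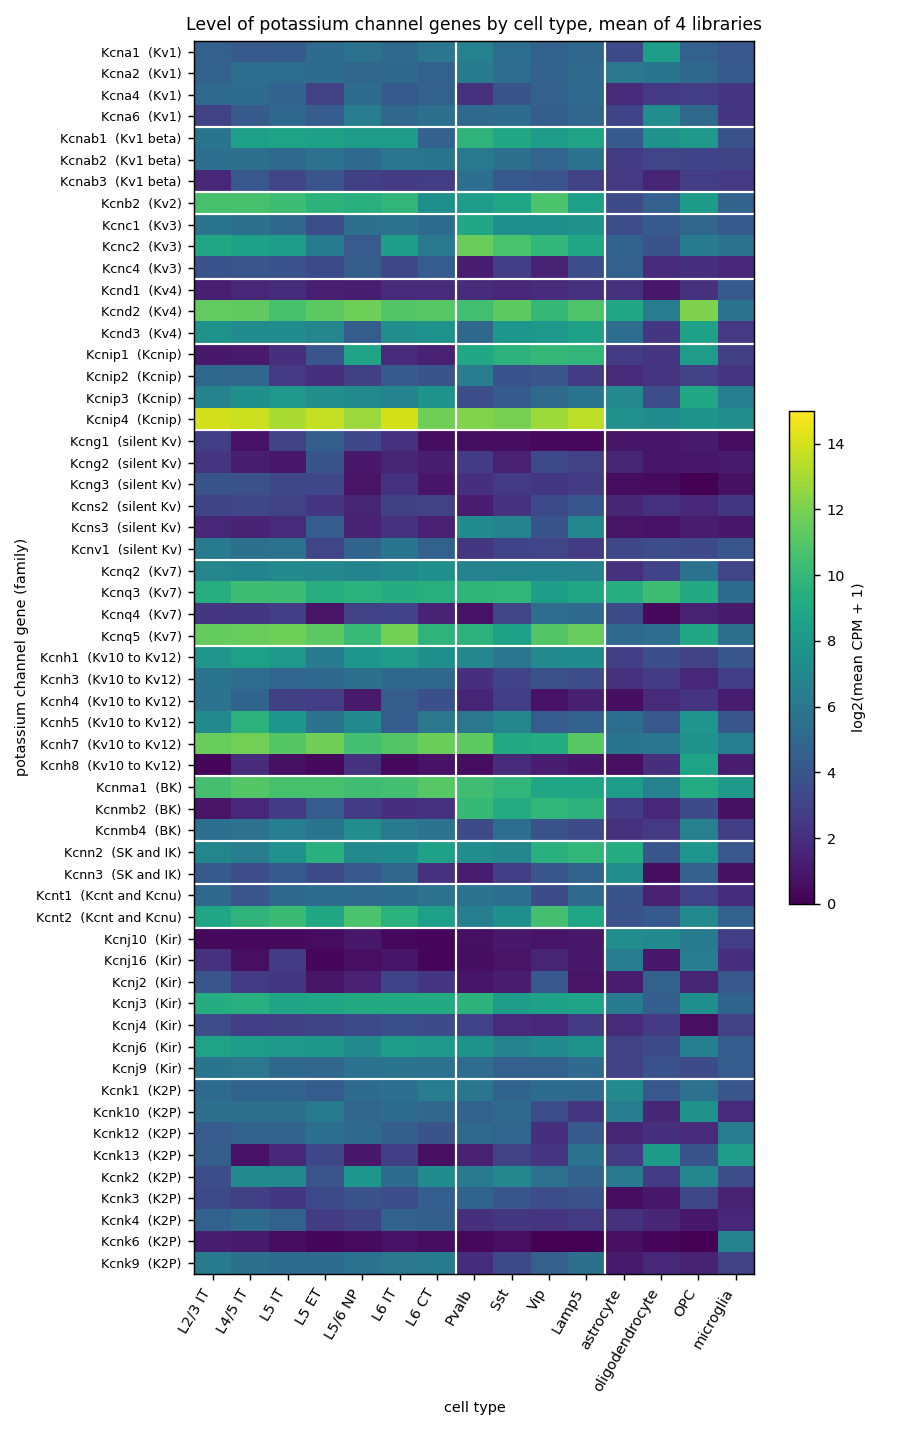
Level of the potassium channel genes at 10 CPM or more in at least 1 type, as log2(mean CPM + 1) over 4 libraries, for 15 cell types (columns) and genes grouped by family (rows); Kcnq1ot1 and genes not reported here are left out. Kcnh8 stands out in OPC, Kcnk6 in microglia, Kcnj10 in astrocytes, oligodendrocytes and OPC, and Kcnmb2 in the 4 interneuron types.

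Among axonal Kv1 pores, Kcna1 and Kcna2 gave the most UMIs. Kcna1 was at 319.3 ± 19.5 CPM in oligodendrocytes and 96.8 ± 5.88 in Pvalb interneurons, and at 9.02 to 59.2 CPM on average in the other types. Kcna2 was flatter, from 18.0 CPM in microglia to 68.4 CPM in Pvalb interneurons. Of the Kv1 beta subunits, which bind the inner face of Kv1 pores, Kcnab1 ranged from 13.3 CPM in microglia to 853.7 ± 27.1 in Pvalb interneurons and Kcnab2 from 5.22 CPM in astrocytes to 66.5 in Pvalb interneurons. Kv2 pores carry delayed rectifier current at the cell body. Kcnb2 was high in Vip interneurons (1702 ± 122.5 CPM) and in L2/3 and L4/5 IT neurons (1565 ± 40.6 and 1574), and lower in L6 CT neurons (178.6 CPM).

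Kv3 pores open and close fast and are known from fast-spiking interneurons. Kcnc2 was at 3067 ± 460.9 CPM in Pvalb, 1660 in Sst, 991.4 in Vip and 469.0 in Lamp5 interneurons, and Kcnc1 at 478.9 ± 27.3 in Pvalb against 175.9 to 195.5 CPM in the other interneuron types. Kv4 pores carry A-type current in dendrites. Kcnd2 was highest in OPC (4465 ± 293.4 CPM), followed by L5/6 NP neurons (3343), and Kcnd3 was near equal in Lamp5 interneurons and OPC (384.5 and 381.7 ± 28.0 CPM). Of their partners, Kcnip3 was highest in OPC (518.8 ± 55.6 CPM). Kcnip1 was found in all 4 interneuron types (479.2 to 1031 CPM), L5/6 NP neurons (430.3 ± 64.5) and OPC (296.8 ± 36.2), and was at 14.4 CPM or less in every other type. Of the silent Kv subunits, which modify Kcnb pores, Kcnv1 was highest in L2/3 IT (72.0 CPM) and Kcns3 in Pvalb (147.3), Lamp5 (121.9) and Sst (98.1) interneurons, with 13.7 CPM in Vip.

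Kv7 pores carry the M-current, which muscarinic receptors close. Kcnq5 ranged from 383.0 CPM in Sst to 3610 CPM in L6 IT among neurons and was at 33.5 to 45.5 CPM in astrocytes, oligodendrocytes and microglia. Kcnq3 was about as high in oligodendrocytes (1317 ± 110.5 CPM) as in L4/5 IT (1287) and L5 IT (1228) neurons. In the Kcnh family, Kcnh7 of the ERG group ran from 525.9 CPM in Sst to 3587 CPM in L4/5 IT neurons, and Kcnh5 of the EAG group was at 797.7 ± 70.0 CPM in L4/5 IT, with 231.9 in L5 IT and 222.1 in OPC. Kcnma1, the calcium- and voltage-gated BK pore, was between 1352 and 2176 CPM in excitatory types. Its beta subunit Kcnmb2, which inactivates the pore, was at 591.9 to 1056 CPM in interneurons and at 19.9 CPM or less in excitatory types. Calcium-gated SK pores contribute to the after-potential that follows action potentials. Kcnn2 was at 969.3 CPM in Lamp5, 731.9 ± 29.3 in L5 ET, 720.1 in Vip and 630.5 ± 64.7 in astrocytes, and Kcnn3 at 171.9 ± 24.2 in astrocytes.

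Of the sodium-activated pores, Kcnt2 was highest in L5/6 NP (1696 CPM) and Vip (1503 ± 188.5), and Kcnt1 was at 10.3 to 51.0 CPM in neurons. The inward rectifier Kcnj3 ran from 303.3 CPM in Sst to 826.0 ± 116.0 in Pvalb among neurons, and its partner Kcnj6 from 100.7 in Sst to 403.8 in L2/3 IT. Of the leak pores, Kcnk2 was at 238.7 CPM in L5/6 NP and at 10.5 in L2/3 IT, and Kcnk9 was at 36.2 to 73.9 CPM in excitatory types. Kcne1 and Kcne2, single-span partners of Kcnq pores, had mean levels of at most 0.628 and 0.898 CPM in any type, and the 5 Kcne genes together 143 UMIs. Kcnq1ot1, a nuclear noncoding RNA transcribed against Kcnq1, was at 254.9 to 1128 CPM in every type. The labels do not state whether counting used strand, so for Kcnq1ot1 and Kcnq1, and for Kcnd3, Kcnmb4 and Kcnab3 with their os genes, reads of the partners may not be separated.

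A member was said to mark a type when its CPM there was at least 1.5 times that of every other type compared in the same library, in all 4 libraries, with at least 10 UMIs in each. This describes clusters made from the same nuclei and carries no test, and the Kcn genes were left out of the genes used to cluster. Over all 15 types, 18 of the 71 members with enough UMIs marked 1 type (25.4%), against 19.7% of all genes, so the share of members was near the background. Counting the comparisons within excitatory types, within interneurons and within glia as well, 43 members gave 56 pairs of member and type. Of the 88 members with at least 10 UMIs over all libraries, 42 had the same highest type in all 4 libraries (47.7%), against 36.4% of all such genes. Of the 42, 10 were highest in Pvalb interneurons (11.4% of the 88, against 1.66% of all genes), 6 in L4/5 IT (6.82% against 0.895%), 3 in microglia (3.41% against 14.8%) and none in L5 IT, Sst or Vip (0.183%, 0.620% and 0.807% of all genes).

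Few members marked a layer of excitatory neurons. Over all types, Kcnh4 marked L2/3 IT (1 of 69 members, 1.45%, background 0.292% of genes) and Kcnh5 L4/5 IT (1 of 65, 1.54%, background 0.265%). Kcng1 marked L5 ET (1 of 58, 1.72%, background 0.317%) and Kcnmb4 L5/6 NP (1 of 40, 2.50%, background 0.812%). No member marked L5 IT (background 0.0329%), L6 IT (0.0696%) or L6 CT (0.265%). At a fold of at least 2, Kcnh5 still marked its type, and Kcnh4, Kcng1 and Kcnmb4 did not. Kcnh4 was at 55.0, 57.9, 45.8 and 48.9 CPM in L2/3 IT of non-pregnant replicates 1 and 2 and pregnant replicates 1 and 2, the order used below. That was 1.83 to 1.96 times the next type. Kcnh5 in L4/5 IT was at 722.4, 775.9, 890.0 and 802.5 CPM, and the smallest ratio to any other type was 3.34. Kcng1, a silent subunit, was at 25.8, 26.7, 19.1 and 16.4 CPM in L5 ET, both pregnant libraries being below both non-pregnant ones. That difference was not called in the comparison of groups below (log2 -0.53 ± 0.15, SE, edgeR adjusted p = 0.0609). Kcnmb4, the neuronal BK beta subunit, was at 171.6, 142.9, 175.2 and 165.3 CPM in L5/6 NP.

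Compared with other excitatory types only, 12 of 70 members marked a type (17.1%, background 5.09%). L5 ET had 5 of them (8.62% of 58 members, background 1.41%): Kcng2, Kcns3, Kcnmb2, Kcnn2 and Kcng1. Kcnn2 in L5 ET was at 724.2, 695.3, 763.9 and 744.4 CPM, at least 1.82 times L6 CT, the next type. The other marking members of L5 ET were at low levels, with Kcng2 at 10.4 to 17.7, Kcns3 at 9.18 to 25.2 and Kcnmb2 at 14.8 to 22.9 CPM. Kcnmb2 was higher than that in all 4 interneuron types, and Kcns3 in Pvalb, Sst and Lamp5. L5/6 NP had 3 (7.50%, background 2.87%). Kcnip1 there was at 385.2, 367.4, 502.3 and 466.3 CPM, 21.0 to 220.1 times the next excitatory type, and Kcna6 was at 69.8 to 95.4 CPM, at least 1.60 times L6 CT. L2/3 IT had 2 (2.90%, background 0.985%), Kcnh4 and the leak pore Kcnk13 at 18.5 CPM or more. L4/5 IT had Kcnh5 (1.54%, background 0.747%) and L6 CT had Kcnk1, a weakly conducting leak pore, at 65.6 to 101.9 CPM (1.89%, background 0.753%). L5 IT and L6 IT had none (backgrounds 0.230% and 0.235%).

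Parvalbumin interneurons held the largest group of marking members among neurons. Over all types, 6 of 51 members marked them (11.8%), against 0.684% of all genes, and they included the Kv3 pores Kcnc1 and Kcnc2. Kcnc1 was at 497.0, 504.6, 445.2 and 468.6 CPM, at least 2.31 times any other type. Kcnc2 was at 2560, 2931, 3667 and 3110 CPM, with Sst next. Also among them were the Kv4 partner Kcnip2 (68.8 to 90.2 CPM) and the Kv1 beta subunits Kcnab1 (814.8 to 877.9 CPM) and Kcnab3 (36.6 to 47.2 CPM). Within interneurons Kcns1, Kcna1, Kcnj3 and the leak pore Kcnk3 joined them, which made 10 of 51 (19.6%, background 2.75%). Kcnj3 in Pvalb was at 682.3, 781.3, 922.9 and 917.2 CPM, 1.79 to 2.30 times the next interneuron type.

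The other interneuron classes had fewer marking members, and each of them only within interneurons (17 of 61 members in all, 27.9%, background 7.85%). No member marked Sst, Vip or Lamp5 over all types (backgrounds 0.344%, 0.543% and 0.635%). Vip had 3 (7.32%, background 2.57%): the inward rectifier Kcnj2 at 9.18 to 24.5 CPM, Kcnb2 at 1529 to 1818 CPM, at least 3.12 times Sst, and Kcnt2 at 1344 to 1764 CPM, at least 2.82 times Lamp5. Lamp5 had 2 (4.55%, background 2.56%). Kcnk13 was at 58.8, 56.8, 38.6 and 49.2 CPM there, at least 6.31 times Sst, and Kcnk9 at 40.5 to 49.5 CPM. Sst had 2 (4.08%, background 1.72%), Kcnmb4 at 41.5 to 44.9 and Kcnh5 at 91.5 to 124.9 CPM.

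**Figure D2:**
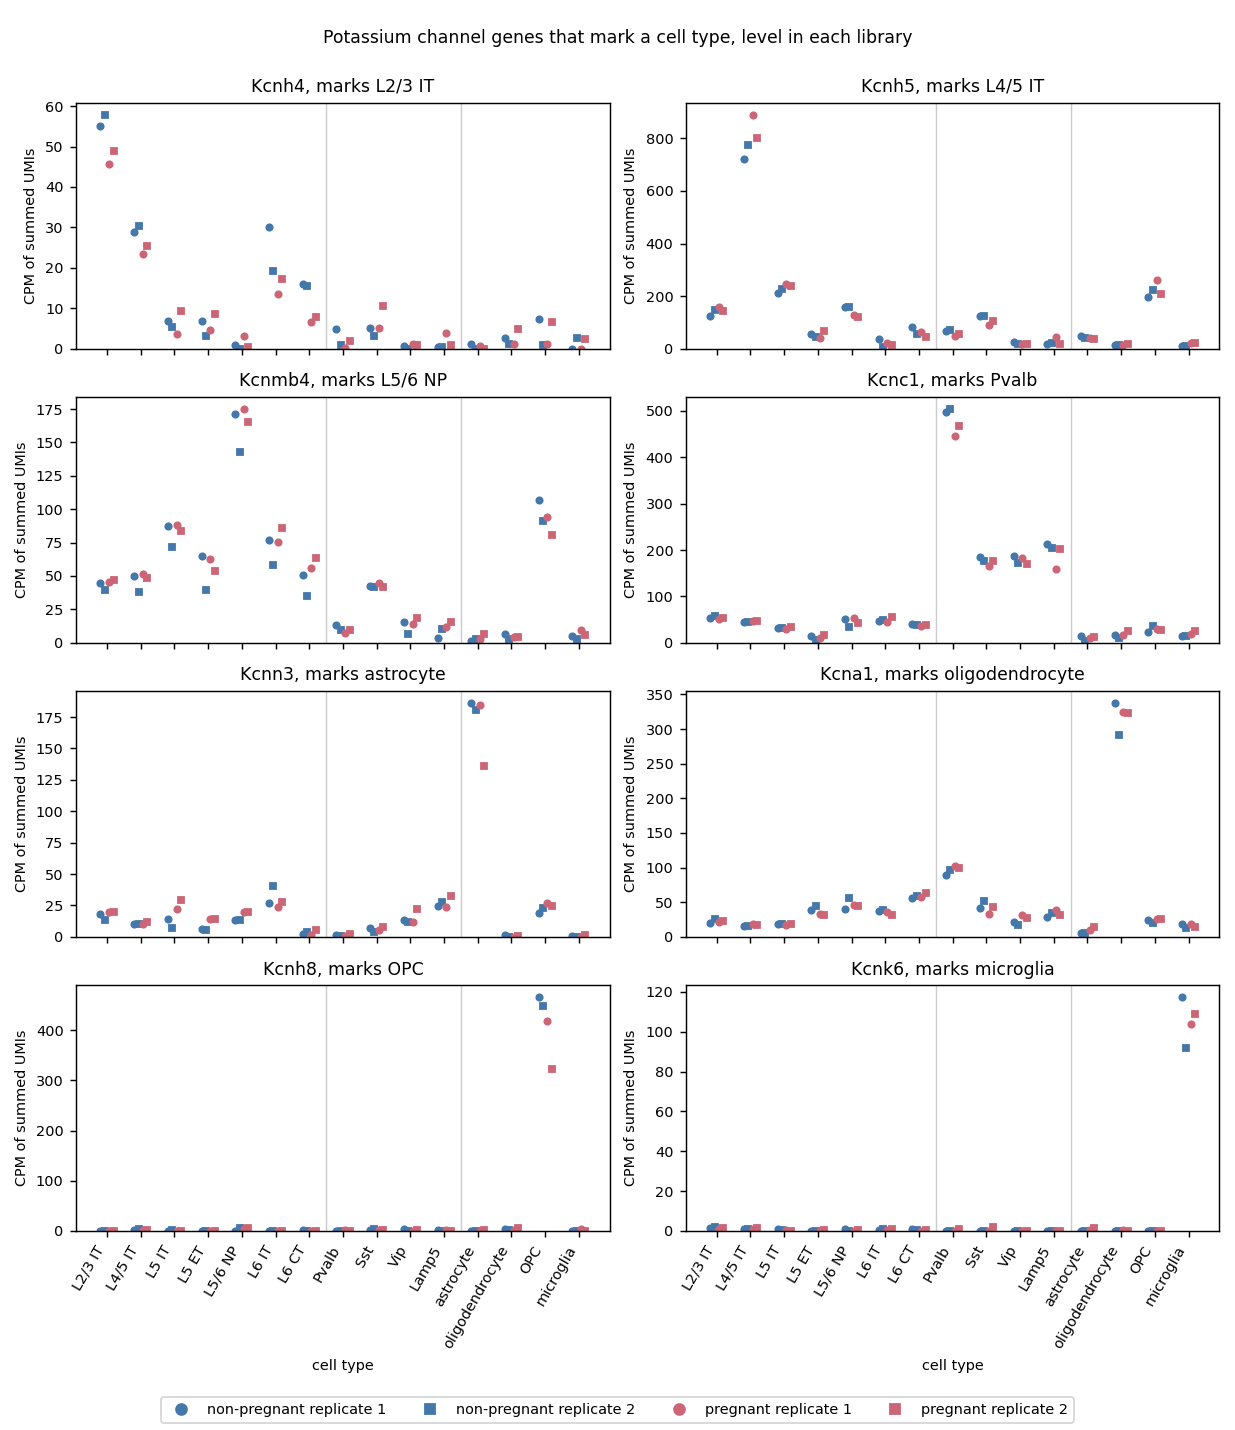
CPM of summed UMIs of 8 marking members in each of 15 cell types (horizontal axis), 1 point per library, blue for non-pregnant and red for pregnant. Kcnh8 in OPC and Kcnk6 in microglia are near 0 elsewhere, while Kcnh4 in L2/3 IT and Kcnmb4 in L5/6 NP stand 1.83 and 1.57 times or more above the next type.

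Free neuronal RNA can enter the droplets of glial nuclei. A list of 15 neuronal genes was summed for comparison. It stood in astrocytes at 7.79% to 9.79% of its level in excitatory neurons, in oligodendrocytes at 3.14% to 7.04%, in OPC at 20.1% to 21.0% and in microglia at 8.89% to 12.4%. The median of its genes taken singly was 3.96% to 7.15% in astrocytes and 4.03% to 10.1% in oligodendrocytes. That median was 13.2% to 16.1% in OPC and 6.78% to 12.0% in microglia. Members with at least 10 UMIs in each library numbered 26, 28, 33 and 21 in these 4 types. Of those, 9, 8, 14 and 3 were above their excitatory level in all 4 libraries. At or below the level of the neuronal list in all 4 libraries were 3, 9, 2 and 9. The part of free RNA in their levels was not tested. Kcnip4 was among them, at 0.753% to 1.43% of its excitatory level in oligodendrocytes and 1.16% to 1.77% in astrocytes.

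**Figure D3:**
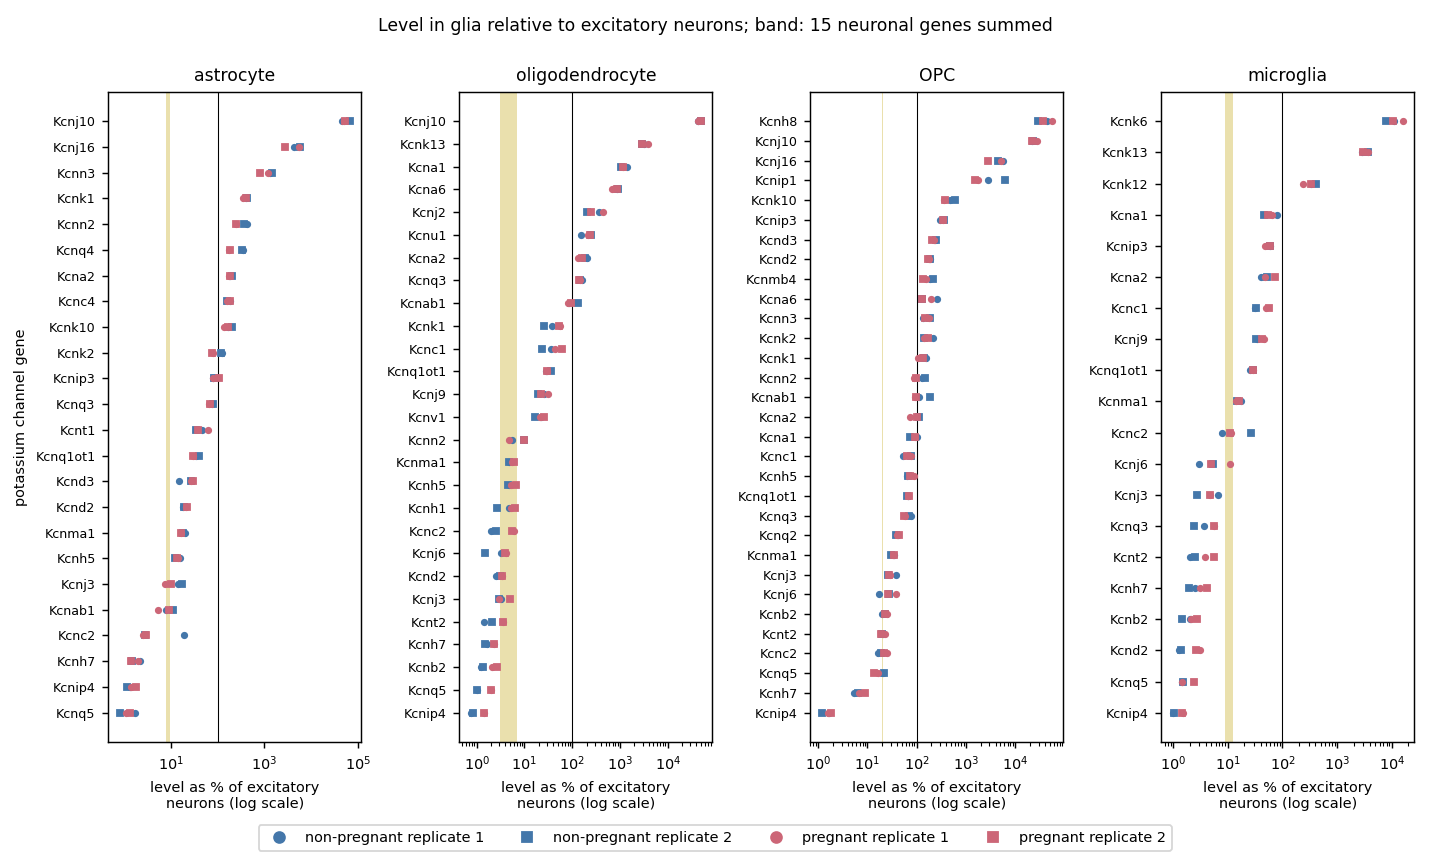
Level of the members with at least 10 UMIs in every library in 4 glial types, without genes not reported here, as a percentage of their level in excitatory neurons of the same library (log scale), 1 point per library. The band spans the neuronal list over the 4 libraries, from 3.14% to 7.04% in oligodendrocytes, and points right of the line at 100 are above the excitatory level.

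Astrocytes were marked over all types by 2 of 26 members (7.69%, background 7.36%). Kcnn3 was at 186.2, 181.0, 184.5 and 135.7 CPM, at least 4.13 times any other type, with pregnant replicate 2 the lowest. Kcnk1 was at 157.5, 132.4, 121.4 and 154.6 CPM, at least 1.55 times L6 CT. Against the other glia, Kcnc4 (19.1 to 29.0 CPM) and Kcnn2 (579.3 to 717.4 CPM) marked them too, which made 4 (15.4%, background 10.5%). Kcnj10, the inward rectifier known for potassium uptake by astrocytes, marked no type. Its mean was 161.1 CPM in astrocytes, 138.7 in oligodendrocytes and 70.7 in OPC, and at most 1.07 CPM in any neuron type. Its partner Kcnj16 was at 81.1 CPM in astrocytes and 81.5 in OPC, and at 0.993 in oligodendrocytes.

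Oligodendrocytes were marked over all types by the Kv1 pores Kcna1 and Kcna6 (2 of 28, 7.14%, background 6.59%). Kcna1 was at 337.8, 291.7, 324.5 and 323.2 CPM, at least 3.03 times Pvalb, and Kcna6 at 171.8, 158.1, 158.8 and 163.0 CPM, at least 1.67 times L5/6 NP. Against the other glia Kcnq3 was added (1167 to 1426 CPM, 10.7%, background 8.33%). Microglia were marked over all types by Kcnk6 (1 of 21, 4.76%, background 18.9%), at 117.4, 92.0, 104.1 and 108.8 CPM, at least 46.5 times any other type. Within glia Kcnk12 was added at 69.9 to 83.3 CPM (9.52%, background 22.4%). Its relative Kcnk13 was near equal in microglia (298.2 CPM) and oligodendrocytes (287.3), and thus marked neither.

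Over all types OPC were marked by Kcnh8, Kcnk10 and Kcnip3 (3 of 33, 9.09%, background 2.60%). Kcnh8, a pore of the ELK group, was at 465.7, 447.5, 418.7 and 322.7 CPM, at least 54.7 times any other type. Kcnk10, a leak pore opened by stretch and lipids, was at 215.3, 249.9, 185.2 and 187.9 CPM, both pregnant libraries being below both non-pregnant ones. That difference was not called in the comparison of groups below (log2 -0.37 ± 0.15, SE, edgeR adjusted p = 0.696). Kcnip3 was at 512.6, 596.4, 464.7 and 501.6 CPM. Against the other glia 18 of 33 members marked OPC (54.5%, background 9.64%), out of 27 of 44 for glia as a whole (61.4%, background 36.0%). Kcnb2, Kcnq5 and Kcnt2 were among the 18 at 13.8% to 25.5% of their excitatory level. That range spans the 20.1% to 21.0% of the summed neuronal list in OPC, whose genes had a median of 13.2% to 16.1%. Kcnh7, also among the 18, was at 162.6 to 255.3 CPM in OPC, against 3290 to 3632 CPM in L5 ET neurons. Kcnd2, Kcnip1 and Kcnmb4 of the 18 were not close to the level of the neuronal list. Nor was Kcnk2, which did not mark OPC, at 141.7% to 210.7% of its excitatory level.

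Pregnant and non-pregnant mice were compared in each type with edgeR's quasi-likelihood test on UMIs summed per library, fitted on all genes of the type, and a gene was called at an adjusted p (Benjamini-Hochberg) under 0.05. With 2 libraries a group, p-values measure only the spread between these libraries, which may be technical in part. Some clusters were nearly limited to the pregnant libraries, and the labels do not name the area dissected. A difference in the tissue sampled therefore cannot be told apart from one with pregnancy, for any call below. After the filter on low counts 71 members were tested in at least 1 type, 792 pairs of member and type. Called were 19 pairs (2.40%), against 0.591% of all gene and type pairs, and 13 members. Of these, 16 pairs were higher and 3 lower in pregnant mice (background 0.399% and 0.193%). Excitatory types held 17 of 439 pairs (background 0.987%), interneurons 1 of 219 (background 0.0552%) and glia 1 of 134 (background 0.246%), so that over all genes too the calls lay mostly in excitatory types. The median log2 fold change over the pairs was 0.06, against 0.001 over all genes, and 157 pairs (19.8%) had an unadjusted p under 0.05, against 8.49% of all. The plot of called pairs by library shows their values.

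**Figure D4:**
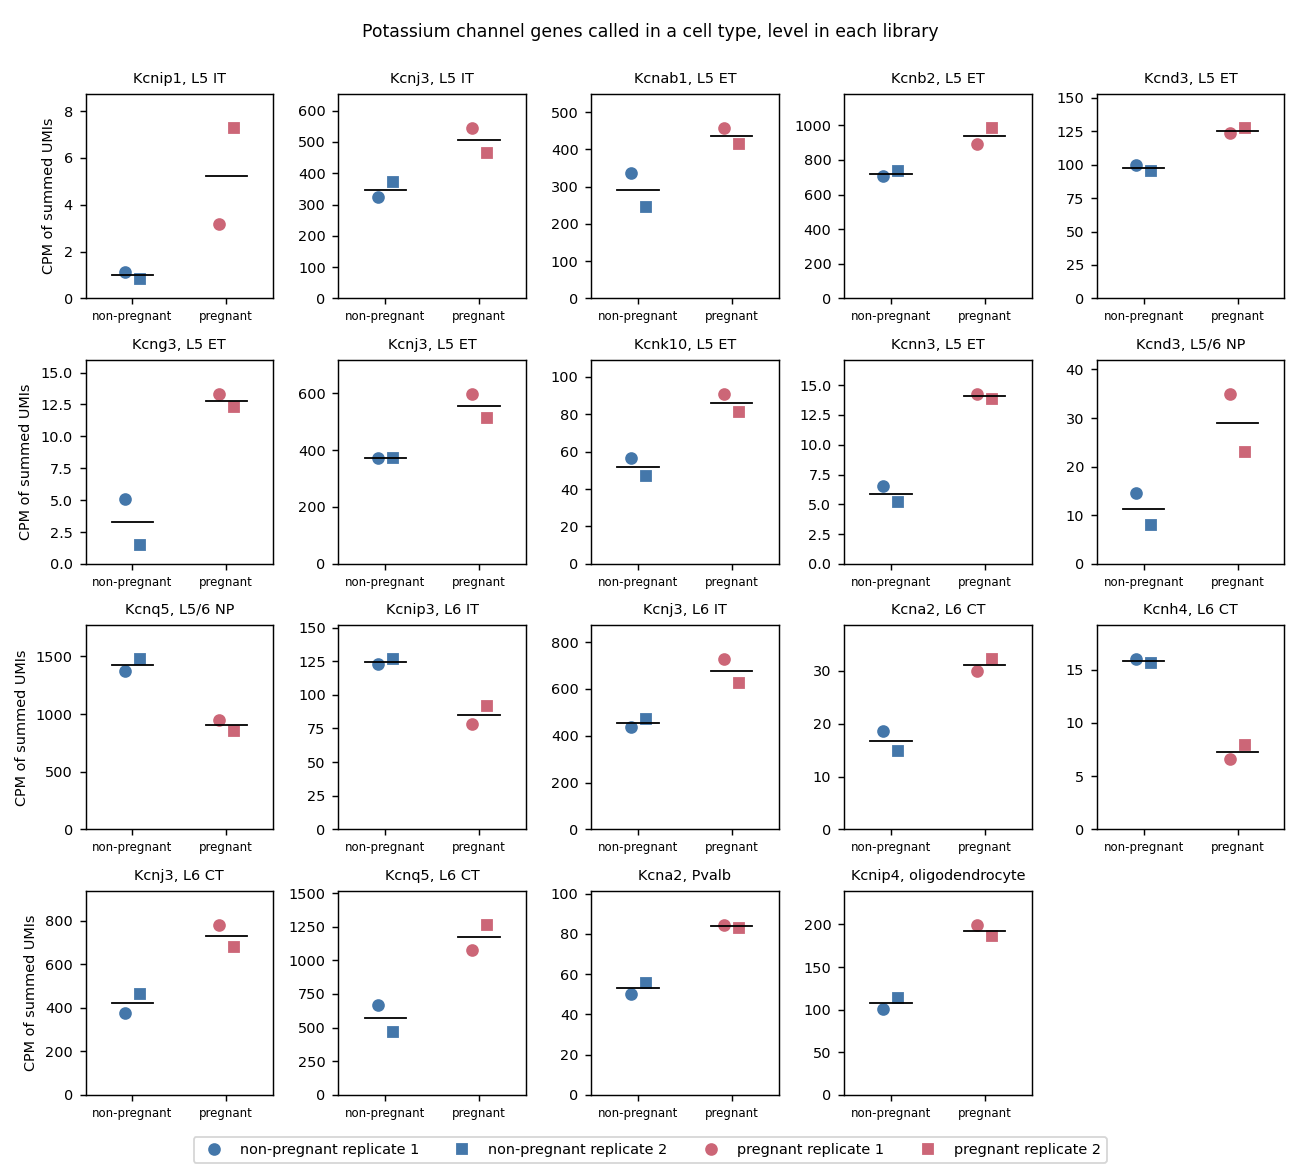
CPM of summed UMIs of the 19 called pairs of member and cell type, 1 point per library and a line at each group mean (n = 2). The pairs were chosen by the test, which favours groups that do not overlap, as in every panel here. Of the 19, 16 are higher in pregnant libraries.

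The inward rectifier subunit Kcnj3, whose promoter is given above, was called in the most types and was higher in pregnant mice in each of the 4. In L5 IT neurons it was at 323.1 and 372.8 CPM in non-pregnant and 544.2 and 465.8 in pregnant libraries (log2 0.55 ± 0.12, SE, adjusted p = 0.0307, edgeR). L5 ET neurons had 371.5 and 370.3 CPM against 598.2 and 511.7 (log2 0.62 ± 0.11, adjusted p = 0.00326). Pregnant replicate 1 was the highest in both types. L6 IT neurons had 438.8 and 470.2 against 727.1 and 624.3 CPM (log2 0.56 ± 0.11, adjusted p = 0.0172). L6 CT neurons had 375.9 and 465.1 against 781.7 and 677.7 CPM (log2 0.81 ± 0.13, adjusted p = 0.0255). In L2/3 IT, L4/5 IT and Pvalb the fold change was 0.34, 0.32 and 0.33 on the log2 scale with adjusted p of 0.530, 0.590 and 0.553, and in L5/6 NP it was -0.10 (adjusted p = 0.868). Among glia it was -0.58 ± 0.20 in astrocytes (edgeR adjusted p = 0.391). In OPC, microglia and oligodendrocytes it was 0.17, 0.45 and 0.62 (adjusted p 0.949, 0.832 and 0.607). The partners Kcnj6 and Kcnj9 were not called in any type where they were tested. In L5 IT nuclei the L6 IT marker list was at 756.6 and 280.9 against 1139 and 1139 CPM, with 2 of 6 genes higher in both pregnant libraries and Osr1 and Col23a1 at 0 in a library, and in L6 IT nuclei at 1510 and 1907 against 2247 and 2404 CPM, with 5 of 6 higher. Their part in the result was not tested. Here and below, the lists named in this comparison are ones that moved with the group, apart from the neuronal list in astrocytes. Other lists are not given. The share of all genes higher in both pregnant libraries is not given either. The counts thus do not show that a list moved more than other genes. Without pregnant replicate 1 the 4 calls of Kcnj3 were lost (adjusted p 0.487 in L5 IT, 0.0542 in L5 ET, 0.759 in L6 IT and 0.522 in L6 CT), without pregnant replicate 2 all but that of L5 ET (0.0576, 0.145 and 0.202), and without non-pregnant replicate 1 that of L5 IT (0.117). The L5 IT call of Kcnj3 was also lost without the doublet filter (0.0518) and with finer clusters (0.05001).

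The Kv1 pore Kcna2 was higher in L6 CT neurons and in Pvalb interneurons. L6 CT had 18.6 and 14.8 CPM in non-pregnant and 30.0 and 32.2 in pregnant libraries (log2 0.93 ± 0.16, adjusted p = 0.0187, edgeR). Pvalb had 50.2 and 55.8 against 84.6 and 82.9 CPM (log2 0.66 ± 0.11, adjusted p = 0.0390), the only member called there of 58 (1.72%, background 0.133%). Summed over interneurons it was also the only one of 68 (1.47%, background 0.185%), at 40.2 and 40.2 against 62.0 and 55.9 CPM (log2 0.55 ± 0.10, adjusted p = 0.0155). Over the whole library it was at 29.2 and 31.9 against 42.1 and 43.7 CPM (log2 0.48 ± 0.08, adjusted p = 0.0192). Its fold change was above 0 in 14 of 15 types, the exception being oligodendrocytes at -0.01. The types are parts of the library sum in which Kcna2 was called and share its libraries. The count of signs is thus no separate support. In Pvalb nuclei the Sst list was at 49.5 and 37.8 against 67.4 and 65.3 CPM (3 of 6 genes higher in both pregnant libraries, Chodl at 0 in a library) and the list of 4 red blood cell genes at 6.72 and 8.15 against 25.5 and 20.3 CPM (3 of 4 higher, Hbb-bt at 0). Their part in the result was not tested. Without pregnant replicate 1 no Kcna2 call was kept (adjusted p 0.490 in L6 CT, 0.998 in Pvalb, 0.818 in interneurons and 0.460 in the library). Without pregnant replicate 2 only that of interneurons was kept (0.415 in L6 CT, 0.170 in Pvalb, 0.0478 in interneurons and 0.254 in the library), and with DESeq2 only that of the library (0.0722 in L6 CT, 0.172 in Pvalb and 0.149 in interneurons).

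In the whole library 3 of 80 members were called (3.75%, background 1.30%): Kcna2, Kcnh4 and Kcnn2. Kcnh4 was lower, at 30.0 and 31.3 CPM in non-pregnant and 18.3 and 23.2 in pregnant libraries (log2 -0.58 ± 0.10, adjusted p = 0.0202, edgeR). Kcnn2 was higher, at 190.0 and 175.7 against 263.6 and 248.6 CPM (log2 0.47 ± 0.08, adjusted p = 0.0290). Summed over excitatory neurons these 2 were called out of 76 (2.63%, background 1.06%). Kcnh4 had 34.6 and 35.8 against 21.6 and 27.2 CPM (log2 -0.55 ± 0.10, adjusted p = 0.0413) and Kcnn2 171.8 and 161.7 against 265.0 and 236.3 CPM (log2 0.58 ± 0.10, adjusted p = 0.0317). Kcnh4 marks L2/3 IT, which had 1714 and 1446 nuclei in non-pregnant and 1059 and 1293 in pregnant libraries. Among excitatory types Kcnn2 marks L5 ET, which had 208 and 129 against 310 and 259 nuclei. With equal numbers of nuclei per type in every library, the fold changes in the library were -0.30 for Kcnh4 (adjusted p = 0.206) and 0.20 for Kcnn2 (0.468), and neither was called, while Kcna2 was (log2 0.47, adjusted p = 0.0462). Within single types Kcnn2 was not called in any of 15, and its log2 fold change was above 0 in 13 of them. It was between 0.02 and 0.24 in the excitatory types other than L5/6 NP, where it was 0.49 ± 0.14 (adjusted p = 0.0914), with 0.12 in L5 ET. In Pvalb it was 0.40 ± 0.09 (adjusted p = 0.192) and in microglia 0.99 ± 0.45 (adjusted p = 0.570), and 5 of the 15 types had an unadjusted p under 0.05. Kcnh4 was tested in 7 types and called in L6 CT only. Its log2 fold change was -0.30 ± 0.08 in L2/3 IT (adjusted p = 0.311), -0.31 ± 0.10 in L4/5 IT (0.497) and -0.68 ± 0.22 in L6 IT (0.237), and above 0 in L5 IT, L5 ET and Sst (0.07, 0.38 and 0.95), again with 5 types at an unadjusted p under 0.05. The types are parts of the sums in which Kcnn2 and Kcnh4 were called and share their libraries. The counts of types by sign or unadjusted p are thus no separate support. In sums that are not evened over types, fewer nuclei of a type and less RNA per nucleus cannot be told apart. Without pregnant replicate 1 or 2, no call of Kcnh4 or Kcnn2 in the library or in excitatory neurons was kept (adjusted p 0.382 to 0.592 without the first and 0.120 to 0.185 without the second).

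Layer 5 ET neurons held the most calls, 7 of 64 members (10.9%), against 2.88% of all genes, and all 7 were higher in pregnant mice (background 1.76%). The median log2 fold change of members there was 0.19, against -0.01 for all genes. Kcnj3 is given above. Kcnk10, a leak pore, was at 56.6 and 46.7 against 91.0 and 81.1 CPM (log2 0.77 ± 0.12, adjusted p = 0.000541, edgeR). Kcnn3, an SK pore, was at 6.55 and 5.22 against 14.3 and 13.8 CPM (log2 1.28 ± 0.22, adjusted p = 0.00135). Kcng3, a silent subunit, was at 5.10 and 1.46 against 13.4 and 12.3 CPM, from 28 and 7 against 156 and 117 UMIs (log2 1.96 ± 0.34, adjusted p = 0.00648). For these 3 pregnant replicate 1 was the highest library. The beta subunit Kcnab1 had 338.1 and 245.1 against 457.5 and 414.3 CPM (log2 0.62 ± 0.13, adjusted p = 0.0231). Kcnb2 had 708.9 and 733.9 against 891.8 and 983.9 CPM (log2 0.41 ± 0.11, adjusted p = 0.0474) and Kcnd3 100.1 and 95.3 against 123.6 and 127.4 CPM (log2 0.39 ± 0.10, adjusted p = 0.0300).

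Against the other excitatory types, the change in L5 ET was larger for 6 of the 7. The test was of the difference itself (edgeR interaction with the library as a block, background 2.95% of all genes). The 7 were chosen by their change in the same L5 ET sums, so their share cannot be set against that background. The same holds for the interaction tests in other types below. The difference was 0.77 ± 0.10 for Kcnk10 (log2, SE, adjusted p = 3.69e-05), 0.51 ± 0.07 for Kcnb2, 0.43 ± 0.07 for Kcnab1, 0.42 ± 0.08 for Kcnd3, 1.09 ± 0.21 for Kcnn3 and 1.93 ± 0.30 for Kcng3, with adjusted p from 7.32e-05 to 0.00307. For Kcnj3 it was 0.28 ± 0.08 (adjusted p = 0.0943). The L5/6 NP marker list moved with the group in these nuclei: its 6 genes summed to 186.5 and 274.5 CPM in non-pregnant and 499.5 and 672.3 in pregnant libraries, 3 of the 6 being higher in both pregnant libraries, with Sla2 and Slc17a8 at 0 in a library. The L5 IT list was at 241.3 and 266.4 against 407.2 and 370.7 CPM, with 2 of 5 higher and none at 0. The L5 ET list itself went from 524.2 and 542.0 to 645.0 and 620.6 CPM. The part of these lists in the result was not tested, and, as above, their counts have no share of all genes beside them. Of 11 alternatives run for each gene, the L5 ET call of Kcnb2 was lost in 7, that of Kcnd3 in 6, that of Kcnab1 in 2 and those of Kcnn3 and Kcnj3 in 1 each. With equal nuclei per finer cluster, Kcnb2, Kcnd3 and Kcnn3 were no longer called (adjusted p 0.0741, 0.185 and 0.0726). Without the doublet filter Kcnb2, Kcnd3 and Kcnab1 were not (0.0937, 0.0625 and 0.0551), which left 4 of 64 members called in L5 ET. With the replicate number as a block the adjusted p of Kcnb2 was 0.155, and with DESeq2 that of Kcnd3 was 0.168. Without non-pregnant replicate 1 the call of Kcnb2 was lost (0.234), without non-pregnant replicate 2 those of Kcnb2, Kcnd3 and Kcnab1 (0.0714, 0.0520 and 0.0519), and without pregnant replicate 1 or 2 those of Kcnb2 (0.0945 and 0.180) and Kcnd3 (0.218 and 0.0981). Kcnk10 and Kcng3 stayed called in all 11 alternatives run.

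Layer 6 CT neurons had 4 of 61 members called (6.56%, background 0.927%). Besides Kcnj3 and Kcna2, the M-current pore Kcnq5 was higher, at 670.0 and 466.3 against 1074 and 1265 CPM (log2 1.06 ± 0.15, adjusted p = 0.0183, edgeR). Kcnh4 was lower, at 16.0 and 15.6 against 6.58 and 7.96 CPM, from 61 and 98 against 45 and 45 UMIs (log2 -1.11 ± 0.21, adjusted p = 0.0315). The change of Kcnj3 was larger in L6 CT than in the other excitatory types (difference 0.50 ± 0.08, adjusted p = 0.000820, background 1.05%), and for Kcnq5 the difference was 1.05 ± 0.28 with adjusted p = 0.556. Marker lists of other types moved with the group in these nuclei. The L5/6 NP list summed to 58.9 and 10.8 against 223.6 and 191.0 CPM, with 3 of 6 genes higher in both pregnant libraries and Trhr at 0 in a library, and the L4/5 IT list to 35.9 and 20.2 against 110.3 and 111.2 CPM, with 2 of 6 and with Scnn1a and Endou at 0. Their part in the result was not tested. Without pregnant replicate 1 or 2 no call of the 4 was kept (Kcnq5 adjusted p 0.258 and 0.289, Kcnh4 0.636 and 0.363), and with DESeq2 the adjusted p of Kcnh4 was 0.192.

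In L5/6 NP neurons 2 of 48 members were called (4.17%, background 1.47%), in opposite directions. Kcnq5 was lower, at 1375 and 1476 against 950.7 and 852.1 CPM (log2 -0.64 ± 0.12, adjusted p = 0.00203, edgeR), while it was higher in L6 CT. The Kv4 pore Kcnd3 was higher, at 14.6 and 8.05 against 35.0 and 23.1 CPM, from 18 and 8 against 65 and 43 UMIs (log2 1.34 ± 0.34, adjusted p = 0.0316). Both changes differed from those of the other excitatory types (Kcnq5 -0.68 ± 0.09, adjusted p = 3.34e-11, and Kcnd3 1.35 ± 0.29, adjusted p = 0.000688, background 1.43%). In these nuclei the L4/5 IT list was at 91.5 and 73.5 against 239.3 and 130.9 CPM, with 1 of 6 genes higher in both pregnant libraries and Endou at 0, and its part was not tested. The Kcnq5 call was lost without pregnant replicate 2 (0.0621). That of Kcnd3 was lost without non-pregnant replicate 2 (0.180) or pregnant replicate 1 (0.526), without the doublet filter (0.0840) and with equal nuclei per finer cluster (0.0885).

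L6 IT and L5 IT neurons had 2 calls each. In L6 IT (3.17%, background 0.675%), Kcnip3, a Kv4 partner, was lower, at 122.8 and 126.5 against 78.3 and 92.0 CPM (log2 -0.57 ± 0.11, adjusted p = 0.0135, edgeR). It was lost without pregnant replicate 1 (0.647) or 2 (0.276) and with DESeq2 (0.0833). In L5 IT (3.08%, background 1.24%), Kcnip1 was at 1.15 and 0.814 against 3.17 and 7.28 CPM, from only 7 and 4 against 22 and 40 UMIs (log2 2.33 ± 0.50, adjusted p = 0.0217). Kcnip1 is high in interneurons and L5/6 NP neurons, and the marker lists of both moved with the group in L5 IT nuclei. The 5 inhibitory markers summed to 40.2 and 14.0 against 113.3 and 109.0 CPM, with 3 of 5 higher in both pregnant libraries and none at 0, and the 6 L5/6 NP markers to 57.3 and 77.9 against 179.0 and 173.2 CPM, with 3 of 6 higher and Slc17a8 and Trhr at 0. Their part in the result was not tested. The Kcnip1 call was lost without pregnant replicate 2 (0.555), with DESeq2 (0.174) and with Kcn genes among the variable genes (0.182).

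The other types had few or no calls. edgeR called none of 69 members in L2/3 IT (11 with unadjusted p under 0.05, 1 called by DESeq2, background 0.126%) and none of 69 in L4/5 IT (17, 0 by DESeq2, 0.0128%). In Sst none of 58 was called (9, 0 by DESeq2, 0.0170%), in Vip none of 49 (1, 0, 0.0411%) and in Lamp5 none of 54 (8, 0, 0.0183%). Among glia, none of 34 was called in astrocytes (6 with unadjusted p under 0.05, 0 by DESeq2, background 0.256%), none of 35 in OPC (4, 0, 0.124%) and none of 31 in microglia (9, 0, 0.432%). The median log2 fold change of members was 0.41 in microglia and 0.30 in oligodendrocytes, against 0.00 for all genes in both. The neuronal list moved the same way, in microglia from 2610 and 2286 to 2922 and 3041 CPM (10 of 15 genes higher in both pregnant libraries) and in oligodendrocytes from 1212 and 807.6 to 1500 and 1731 CPM (13 of 15), and none of the 15 was at 0. In astrocytes, where the median of members was -0.01, the groups of the neuronal list overlapped (2415 and 2002 against 2326 and 2407 CPM). As above, the counts of its genes have no share of all genes beside them. The part of the list in these medians was not tested. A p that misses the threshold does not show that levels were alike.

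Oligodendrocytes had 1 call of 34 members (2.94%, background 0.168%). Kcnip4 was at 101.3 and 113.9 against 199.8 and 186.0 CPM (log2 0.77 ± 0.14, adjusted p = 0.0188, edgeR). These levels are 0.753% to 1.43% of those in excitatory neurons of the same libraries. The neuronal list, given above, moved the same way in these nuclei, and its part in the result was not tested. Without the doublet filter the fold change was 0.13 (adjusted p = 0.979), with DESeq2 the adjusted p was 0.20, and without pregnant replicate 1 it was 0.0612.

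**Figure D5:**
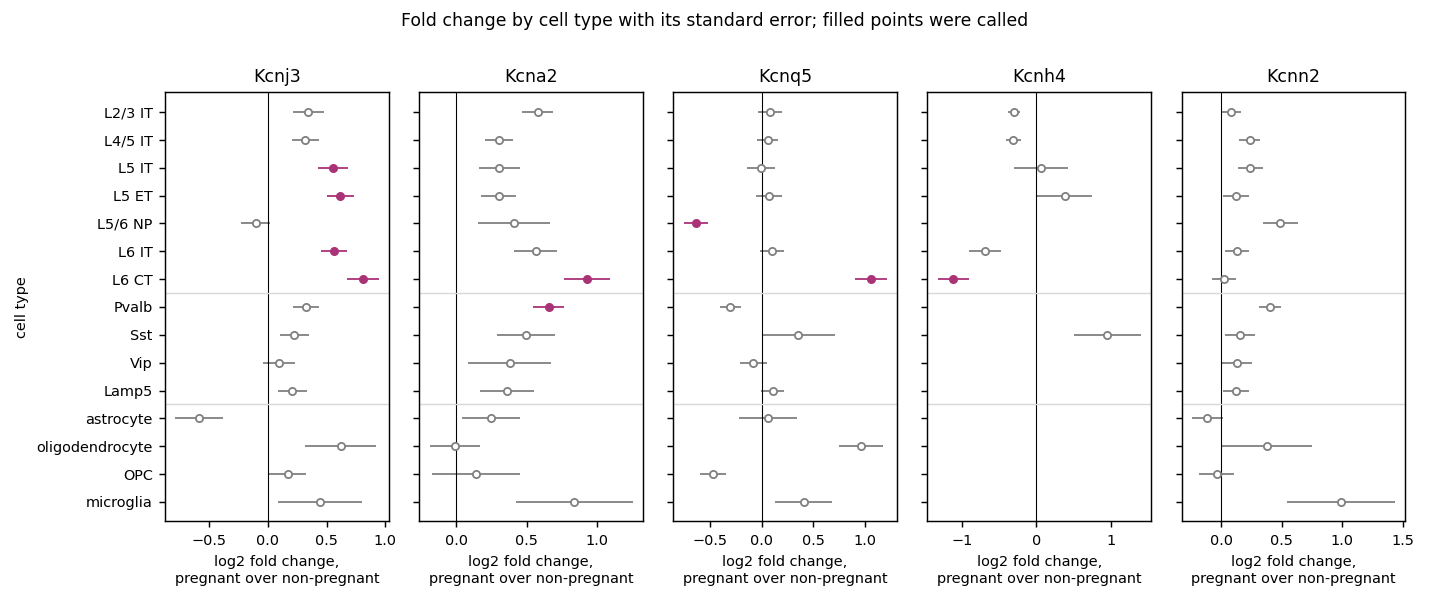
Log2 fold change from non-pregnant to pregnant libraries, with bars for the standard error, for 5 members in the cell types where each was tested; filled points had an edgeR adjusted p under 0.05. Kcnj3 is filled in 4 types, Kcna2 in 2, Kcnq5 on both sides of 0 (L5/6 NP -0.64 and L6 CT 1.06), Kcnh4 in L6 CT and Kcnn2 in none.

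For the other calls the difference from the remaining types of the class did not pass the test. For Kcnj3 it was 0.20 ± 0.06 in L5 IT (log2, SE, edgeR adjusted p = 0.117, background 1.67% of genes) and 0.20 ± 0.07 in L6 IT (0.379, background 0.677%), and for Kcnip3 in L6 IT it was -0.35 ± 0.10 (0.0885). In L6 CT it was 0.53 ± 0.16 for Kcna2 (0.127) and -0.59 ± 0.19 for Kcnh4 (0.205). For Kcnip1 in L5 IT it was 1.07 ± 0.54 (0.539), for Kcna2 in Pvalb 0.18 ± 0.15 (0.915, background 0.204%) and for Kcnip4 in oligodendrocytes against other glia 0.15 ± 0.16 (0.919, background 0.857%).

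Partners of the channels were counted from a list of 29 genes, all measured (Kv4 and Kv2 partners, Kv1 clustering proteins, BK gamma subunits, sulfonylurea receptors, Ank3, Nalcn and others). Of 318 gene and type pairs tested, 6 were higher and 1 lower (2.20%, background 0.591%). Dpp10, a Kv4 partner, was higher in 3 glial types. Astrocytes had 70.0 and 59.8 against 116.7 and 113.4 CPM (log2 0.80 ± 0.18, adjusted p = 0.0258, edgeR), oligodendrocytes 79.5 and 97.3 against 202.3 and 154.6 (log2 0.95 ± 0.16, adjusted p = 0.0116) and microglia 86.5 and 111.4 against 230.9 and 191.6 (log2 1.05 ± 0.17, adjusted p = 0.000933). In microglia the scaffold Dlg2 was also higher, at 95.0 and 84.0 against 161.0 and 155.7 CPM (log2 0.81 ± 0.18, adjusted p = 0.0214). The neuronal list, given above for microglia and oligodendrocytes, moved the same way there. In astrocytes its groups overlapped, at 2415 and 2002 against 2326 and 2407 CPM. The part of the list in these results was not tested. In L5 ET, Lgi1, a secreted protein that binds Kv1 complexes, was higher (96.8 and 74.1 against 111.1 and 115.2 CPM, log2 0.44 ± 0.11, adjusted p = 0.0362), and Cntn2, which clusters Kv1 pores along axons, was lower (36.0 and 39.8 against 27.9 and 24.2 CPM, log2 -0.50 ± 0.13, adjusted p = 0.0428).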

How the data were processed

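The authors deposited matrices of raw UMI counts for 33696 genes; per the submitters' processing notes, the tool was Cell Ranger 10.0.0 and the build GRCm39. Nuclei with under 500 genes or over 5% mitochondrial UMIs were left out, as was the 5% of each library most like simulated doublets. Doublets were thus partly removed, and free RNA was not subtracted. Leiden clusters (scanpy 1.11.5, 2000 variable genes without Kcn genes, 40 components, resolution 1) were named from markers. UMIs were summed per type and library where each library had 50 nuclei.

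Sums were tested with edgeR 4.0.16 (R 4.3.3, quasi-likelihood, TMM, filterByExpr with a minimum count of 10), without a replicate block; DESeq2 1.42.0 was an alternative. The code was tested on simulated data. Named are all members called, up to 4 marking members per type, the 2 members of each family with the most UMIs, and others chosen after their values were seen (such as Kcnj10, Kcnj16 and Kcnip1 by type). Members and lists were chosen with earlier results of these data known. Alternatives left out each library in turn and changed the tool, filters, clusters and numbers of nuclei. Some genes that belong to the counts are not reported here by name.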

Additional observations from a re-analysis of the deposited data

Results flagged for a closer look

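The change with pregnancy in 1 cell type differed from that in the summed other excitatory types, by an edgeR interaction with the library as a block, for 9 of the 19 called pairs of member and type. The 19 were chosen by their change in the same sums, which makes such a difference more likely. In L5 ET neurons the difference (log2, SE) was 0.4331 ± 0.07 for Kcnab1, 0.5134 ± 0.07 for Kcnb2, 0.4173 ± 0.08 for Kcnd3, 1.933 ± 0.30 for Kcng3, 0.7714 ± 0.10 for Kcnk10 and 1.092 ± 0.21 for Kcnn3. In L5/6 NP neurons it was 1.347 ± 0.29 for Kcnd3 and -0.6756 ± 0.09 for Kcnq5, and in L6 CT neurons 0.5035 ± 0.08 for Kcnj3. Leaving out 1 library at a time gave 9 to 15 such pairs, with 15 without non-pregnant replicate 1.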

How the results depend on the processing

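Leaving out a library leaves 1 in its group, which is then assumed to vary like the other group. Over cell types 19 pairs of member and type were called, 42 with no filter on low counts and 6 to 67 without 1 library. In the whole library 3 were called, 6 with DESeq2, 5 with no filter on low counts, 1 with equal nuclei per type and 0 to 16 without 1 library. In excitatory neurons 2 were called, 9 with DESeq2, 6 with no filter, 6 with Kcn genes among the variable genes and 0 to 18 without 1 library. In interneurons 1 was called, 0 with DESeq2 and 0 to 1 without 1 library. The 56 marking pairs became 35 at a fold of at least 2 and 58 to 62 without 1 library. By the rule a higher fold can only remove pairs and a library left out can only add them. Resolution 2 gave 58 pairs with 54 of the 56 among them, and Kcn genes among the variable genes 55 with 54. Without the doublet filter there were 55 pairs with 52 of the 56, and the Sst pairs of Kcnmb4 and Kcnh5 were lost. Pairs of which the change differed between types numbered 9 to 15 without 1 library.

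With the replicate number as a block, 24 pairs were called over cell types (18 of the 19 kept), 5 members in the whole library, 8 in excitatory neurons and 1 in interneurons; same-numbered samples had a correlation of -0.0206, so the numbers were not taken to pair mice. Of the 25 calls in types, class sums and the library none changed sign under any alternative. DESeq2 kept 16 of 24 with an adjusted p, resolution 2 23 of 24, the analysis without a doublet filter 18 of 24, and equal nuclei per finer cluster 14 of 18. Without pregnant replicate 1 or 2 only 6 and 8 of 25 were kept, and without non-pregnant replicate 1 or 2, 23 and 21. Members under about 10 UMIs a library could not be tested.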

Other observations

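The vessel cluster, named from endothelial markers, held 27, 34, 73 and 53 nuclei in non-pregnant replicates 1 and 2 and pregnant replicates 1 and 2, too few for a comparison. Kcnj8, the pore of vascular ATP-sensitive potassium channels, had 13, 7, 24 and 18 UMIs there. Its mean level was 92.7 CPM, and the highest mean in any of the 15 types was 0.221 CPM. Kcnq1, a voltage-gated pore known from heart and epithelia, had 2, 4, 9 and 10 UMIs (31.7 CPM, against at most 3.30), and Kcne4, a single-span partner subunit, had 2, 1, 4 and 4 (15.8 CPM, against at most 0.199).

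Newly formed oligodendrocytes, 48, 41, 35 and 36 nuclei, lay outside the comparisons as well. Kcna2 was at 100.0, 68.7, 99.1 and 100.1 CPM there, and its highest mean in any of the 15 types was 68.4 CPM, in Pvalb interneurons. Kcna1 was at 272.9, 233.2, 148.7 and 182.3 CPM, below its mean of 319.3 CPM in mature oligodendrocytes, and both pregnant libraries were below both non-pregnant ones. Kcnq3 was at 886.1, 770.9, 808.4 and 693.6 CPM, against 1317 in mature oligodendrocytes. Kcnh8, at 413.7 CPM in OPC, had a mean of 8.00 CPM, and Kcnk13, at 287.3 CPM in mature oligodendrocytes, a mean of 37.1 CPM. These levels were not tested.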
